A study of Danio rerio with 20 samples.

Results

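A set of 10 transcription factor genes known from the development and function of the liver were looked up on microarrays of zebrafish (Danio rerio) liver tumors and normal livers. They were chosen by gene symbol: foxa2, foxa3, prox1a, hhex, hnf1ba, cebpa, cebpb, gata4, gata5 and gata6. The platform annotation named 1 probe for each of 8 of these 10 genes, while hnf1ba and cebpb had no probe of that single name and are not analysed here. The 8 genes stand among 15780 features (probes, or averages of probes that share 1 gene symbol). The 20 arrays fall into 10 of liver tumors, which per the labels were induced by carcinogens, and 10 of normal liver. Every array also carried normal zebrafish liver RNA as a common reference, so each value is a log2 ratio to normal liver, probably with the liver sample on top, as the labels list its channel first. Cy5 marked the liver samples and Cy3 the reference on all arrays. With the dyes never swapped, a gene's distance from the reference cannot be told apart from an effect of the dyes. The tumor minus normal difference compares arrays with the same dyes. The labels name neither the carcinogen nor the strain, sex and age of the fish. They do not tie arrays to individual fish either, so a p-value here covers the spread between arrays, part of which may be technical.

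The genes encode DNA-binding proteins that act together in the liver lineage. In mice the FoxA proteins open chromatin as pioneer factors at liver genes, and together with GATA factors they make foregut endoderm able to become liver. Hhex and Prox1 act next, in the growth of the liver bud and the spread of hepatoblasts, and C/EBP and HNF factors then drive the genes of the mature hepatocyte. In the adult liver the same factors maintain genes of plasma proteins, glucose and lipid metabolism.

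Each difference is the tumor mean minus the normal mean of the log2 ratios, with its SE, tested with limma over all 15780 features with Benjamini-Hochberg adjustment, and "passed" means an adjusted p under 0.05. Arrays differed in an indirect measure of dim spots, as no spot intensities were used. The share of spots whose ratio equals that of 2 small whole numbers, as dim spots give, ran from 0.654% to 7.16% on tumor arrays (mean 1.97%) and from 2.55% to 7.87% on normal arrays (mean 5.86%). On this measure 8 of the tumor arrays lay below every normal array, and only tumor replicates 9 (7.16%) and 10 (3.38%) lay within the normal range. Matches by chance, counted with the constant fitted to each array shifted, ran from 0.266% (normal replicate 3) to 0.421% (tumor replicate 5). Part of the low tumor shares can thus be chance matches, as in replicate 4 (0.654%, against 0.375% by chance). With the dim share added to the fit as a covariate 54 of 15780 features passed (0.342%), against 1712 (10.8%) without it. The group and the dim share move together, and the SE of each of the 8 genes was larger in the fit with the covariate. A call lost in that fit is therefore no test of the dim share as its cause. Few values of the 8 genes were themselves at such small whole number ratios, 1 of gata6 on a tumor array and 1 of cebpa on a normal array.

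The forkhead genes foxa2 and foxa3 moved in opposite directions. Foxa2, the pioneer factor that in mice is needed for foregut endoderm, stood between -1.86 and 0.67 on the tumor arrays (median -0.39) and between 0.19 and 1.26 on the normal arrays (median 0.49). It lay below every normal array on 8 of 10 tumor arrays, while tumor replicates 6 (0.24) and 9 (0.67) lay within the normal range. All 10 normal arrays were above the reference, and 7 of the 10 tumor arrays were below it. The means were -0.52 ± 0.82 in tumors and 0.56 ± 0.33 in normal livers (SD, n = 10 each), a difference of -1.08 ± 0.27 (95% interval -1.63 to -0.52, adjusted p = 0.0118 with limma), with normal liver 2.11-fold above tumor. In bulk tissue, fewer cells that express a gene and less of its RNA per cell cannot be told apart.

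Tumor replicates 10 (-1.86) and 1 (-1.75) had the lowest foxa2 values. Without both of them the difference was -0.75 and still passed (adjusted p = 0.0189 with limma). When the dim share was added to the fit it was -0.73 ± 0.38 and did not pass (adjusted p = 0.508 with limma). Of the tumors within the normal range of dim shares, replicate 9 had the highest foxa2 of the tumors and replicate 10 the lowest.

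Foxa3, which in mice is the FoxA gene most tied to the mature liver and to its glucose metabolism, was higher in tumors. It stood between -1.48 and 1.53 on the tumor arrays (median 1.05) and between -0.87 and -0.085 on the normal arrays (median -0.46). In tumors 7 arrays lay above every normal array, between 0.96 and 1.53, and all 10 normal arrays were below the reference. The other three tumors did not share the rise: replicate 9 (-0.092) and replicate 10 (-0.32) lay within the normal range and replicate 4 (-1.48) below it. The difference was 1.10 ± 0.29 (95% interval 0.49 to 1.71, 2.14-fold, adjusted p = 0.0190 with limma). It was 0.86 ± 0.43 with the dim share in the fit and did not pass (adjusted p = 0.482 with limma). The 7 high tumors all had a dim share below every normal array, replicate 4 had the lowest share of all (0.654%), and replicates 9 and 10 were the ones within the normal range of that share.

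The remaining FoxA genes of zebrafish come from the list of other hepatocyte transcription factors. Foxa1 stood between -0.015 and 1.93 on the tumor arrays (median 0.42) and between 0.70 and 2.29 on the normal arrays (median 1.49). It was lower in tumors, by -0.91 ± 0.24 (adjusted p = 0.0160 with limma), with 7 of 10 tumor arrays below every normal array. Unlike foxa2, its highest tumor values were those of replicates 1 (1.93) and 10 (1.29), and without these arrays its adjusted p was 0.00116. It was -0.62 ± 0.34 with the dim share in the fit and did not pass (adjusted p = 0.526). The related gene foxa differed by -0.13 ± 0.18 (adjusted p = 0.694), with a 95% interval of -0.50 to 0.25. Each of these 4 genes rests on 1 probe whose sequence was not used here, so binding of a paralog's RNA to a probe was not tested.

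**Figure D1:**
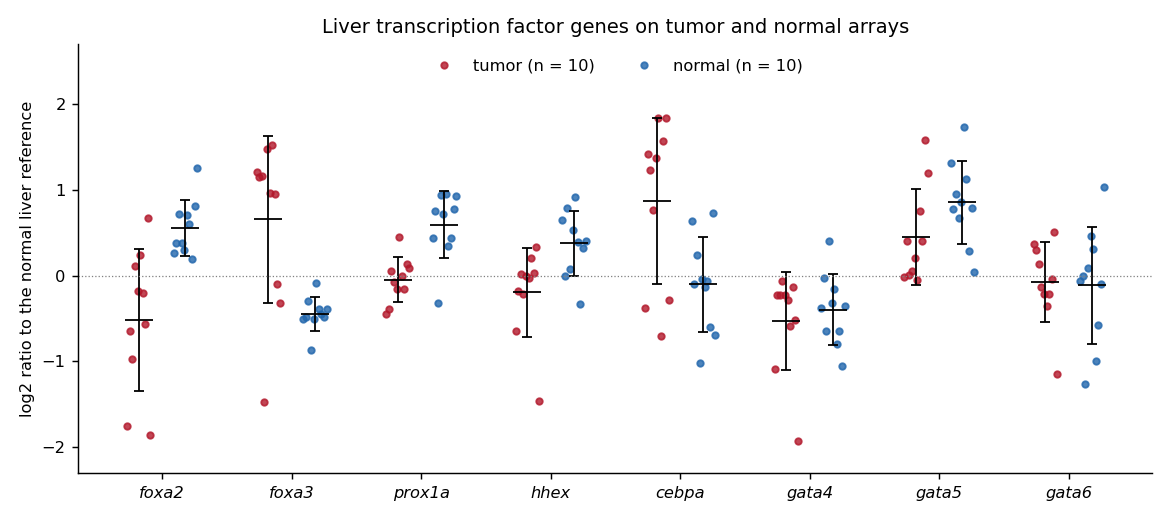
Log2 ratio to the normal liver reference (vertical axis) of the 8 measured genes on each of the 10 tumor arrays (red, left of each pair) and 10 normal arrays (blue, right), with black bars for the mean ± SD. Foxa2 lies below every normal array on 8 tumor arrays, and foxa3 and cebpa lie above every normal array on 7 tumor arrays each.

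Prox1a and hhex encode homeobox proteins of the liver bud. Prox1a, which in mice lets hepatoblasts migrate out of the bud and later marks hepatocytes and lymphatic endothelium, stood between -0.45 and 0.45 on the tumor arrays (median -0.037) and between -0.33 and 0.96 on the normal arrays (median 0.73). Of the normal arrays 6 lay above every tumor array. The means were -0.048 ± 0.26 in tumors and 0.60 ± 0.39 in normal livers (SD, n = 10 each). The difference was -0.64 ± 0.15 (95% interval -0.96 to -0.32, adjusted p = 0.00996 with limma), with normal liver 1.56-fold above tumor. One normal array went against the rest, replicate 3 at -0.33, and without it the difference was -0.75 (adjusted p = 0.00119).

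The difference of prox1a was -0.61 ± 0.23 (95% interval -1.08 to -0.14) with the dim share in the fit and did not pass (adjusted p = 0.298 with limma). On the tumor arrays within the normal range of dim shares prox1a was 0.14 (replicate 9) and 0.094 (replicate 10), below 9 of the 10 normal arrays, and the part of the dim share in the result was not tested. Endothelium, whose lymphatic part is another source of prox1a RNA, was followed with 8 measured markers. The list holds lymphatic and blood vessel markers together, so its mean does not show the lymphatic part alone. Of the 8, 0 passed with limma in either direction (10.8% of all features did). Before adjustment 1 had p under 0.05, and 0 passed with the rank-sum test. Of these markers 7 of 8 were lower in tumors by their means, with a median difference of -0.25, against a median of -0.0086 over all features. Their mean log2 ratio ran from -0.39 to 0.28 on tumor arrays and from 0.023 to 0.40 on normal arrays, and it lay below every normal array on 7 of 10 tumor arrays, so it moved in the same direction as prox1a. Their part in the prox1a result was not tested. The vessel receptor genes flt4 and kdrl differed by -0.14 ± 0.12 and -0.34 ± 0.23 (adjusted p = 0.505 and 0.351 with limma). The smallest p of these markers were those of the receptor tie1 (-0.42 ± 0.19, adjusted p = 0.169), clec14a (-0.27 ± 0.13, adjusted p = 0.192) and the receptor tek (-0.26 ± 0.15, adjusted p = 0.265).

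Hhex, needed for liver and pancreas buds and active in endothelium too, stood between -1.46 and 0.33 on the tumor arrays (median -0.020) and between -0.33 and 0.92 on the normal arrays (median 0.40). Of the normal arrays 6 lay above every tumor array, and tumor replicates 10 (-1.46) and 1 (-0.64) below every normal array. The difference of -0.57 ± 0.20 (95% interval -0.98 to -0.16) missed the threshold (adjusted p = 0.0668 with limma). Without normal replicate 8, the lowest normal array, it was -0.65 and passed (adjusted p = 0.0330), as it did without tumor replicate 9 (-0.63, adjusted p = 0.0408). Without tumor replicates 1 and 10 it was -0.36 (adjusted p = 0.139), and -0.33 ± 0.28 with the dim share in the fit (adjusted p = 0.699).

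Cebpa encodes C/EBP alpha, a leucine zipper protein that in mammals holds back division of hepatocytes and drives genes of the mature liver. It stood between -0.70 and 1.84 on the tumor arrays (median 1.30) and between -1.01 and 0.73 on the normal arrays (median -0.076). The tumors fell into 7 arrays above every normal array and 3 within the normal range, replicates 1 (-0.38), 7 (-0.70) and 10 (-0.29). The difference of 0.97 ± 0.33 (95% interval 0.28 to 1.65, 1.96-fold) missed the threshold (adjusted p = 0.0620 with limma). It passed without tumor replicate 1, 7 or 10, the tumors that did not share the rise (1.11, 1.14 and 1.10, adjusted p = 0.0331, 0.0228 and 0.0337). It also passed without normal replicate 9 (1.06, adjusted p = 0.0484) and after each array was centred on its median (1.0, adjusted p = 0.0477). Without any other single array it did not pass (highest adjusted p = 0.111 with limma). Nor did it pass with the replicate number as a block (adjusted p = 0.0683 with limma) or with the rank-sum test (adjusted p = 0.168). With the dim share in the fit it was 1.25 ± 0.48 (adjusted p = 0.325 with limma). Of the tumors within the normal range of dim shares, replicate 9 was above every normal array at 1.84 and replicate 10 within the normal range at -0.29.

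The family member cebpg, whose product pairs with other C/EBP proteins, was measured by 2 probes and belongs to the list of other hepatocyte factors. It stood between 0.37 and 1.46 on the tumor arrays (median 0.81) and between -0.16 and 0.79 on the normal arrays (median 0.12). It was higher in tumors, by 0.64 ± 0.15 (adjusted p = 0.00757 with limma), although only 5 of 10 tumor arrays lay above every normal array. With the dim share in the fit it did not pass (adjusted p = 0.319).

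The GATA zinc finger genes gata4, gata5 and gata6, which work with FoxA factors in endoderm and are also known from heart and gut, did not pass. Gata4 stood between -1.93 and -0.068 on the tumor arrays (median -0.25) and between -1.05 and 0.40 on the normal arrays (median -0.37), a difference of -0.13 ± 0.22 (95% interval -0.58 to 0.32, adjusted p = 0.740 with limma). Its spread among tumors came largely from replicates 10 (-1.93) and 1 (-1.08), the arrays below every normal array. Without these arrays the sign of the difference turned, to 0.11 (adjusted p = 0.695).

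Gata5 stood between -0.050 and 1.58 on the tumor arrays (median 0.30) and between 0.041 and 1.73 on the normal arrays (median 0.82). All 10 normal arrays were above the reference, as were 8 of 10 tumor arrays. The difference was -0.40 ± 0.22 (95% interval -0.86 to 0.067, adjusted p = 0.269 with limma), and it turned to 0.31 ± 0.25 with the dim share in the fit (adjusted p = 0.687). The highest tumor values were those of replicates 9 (1.58) and 10 (1.20), the tumors within the normal range of dim shares.

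Gata6 stood between -1.14 and 0.51 on the tumor arrays (median -0.081) and between -1.27 and 1.03 on the normal arrays (median -0.034), with every tumor array inside the normal range. The difference was 0.035 ± 0.25 (95% interval -0.48 to 0.55, adjusted p = 0.948 with limma). The intervals of the GATA genes reach -0.86 for gata5, -0.58 for gata4 and 0.55 for gata6, so differences of up to these sizes lie within the error of these arrays.

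In all, 3 of the 8 measured genes passed (37.5%), 2 lower and 1 higher in tumors, against 10.8% of all features, 4.94% lower and 5.91% higher. Among features with 1 gene symbol 12.7% passed. The median difference of the 8 genes was -0.26, against -0.0086 over all features. In none of the 8 did the groups separate fully, which 0.526% of all features did. With the dim share in the fit limma called 0 of the 8, with 2 at an unadjusted p under 0.05, prox1a and cebpa. The rank-sum test called foxa2, foxa3 and prox1a. The share of all features that it called is not given here, so these calls have no background beside them.

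**Figure D2:**
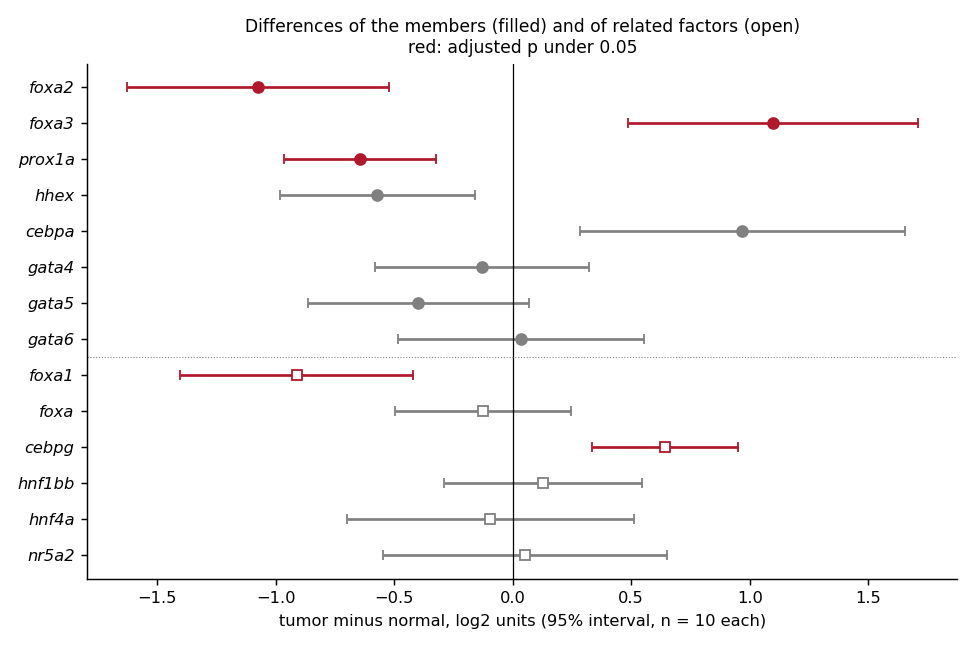
Tumor minus normal difference in log2 units (horizontal axis, with the 95% interval, n = 10 arrays each) of the 8 measured genes (filled circles) and of 6 related factors (open squares), red where the adjusted p was under 0.05. Foxa2, prox1a and foxa1 lie left of 0, while foxa3 and cebpg lie right of it.

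The genes also differed in how evenly they behaved within a group. The SD of foxa3 was 0.97 among tumors and 0.20 among normal livers, larger than that of 93.9% of all features in tumors and than that of 4.09% in normal livers. Foxa2 had SDs of 0.82 and 0.33, above 90.1% and 26.4% of features. Cebpa had SDs of 0.97 and 0.56, above 93.9% and 68.7% of features. Prox1a ran the other way, with an SD of 0.26 among tumors (above 23.9% of features) and 0.39 among normal livers (above 41.1%). That normal SD includes replicate 3 (-0.33), which lay far below the other normal arrays. The SD without replicate 3 is not given here, so the larger spread may rest on that array. Over all features the median SD was 0.38 in tumors and 0.44 in normal livers, so foxa2, foxa3 and cebpa varied between tumors more than most features, in contrast with their normal livers, where only cebpa was above the median. No test was made of these spreads.

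Tumor replicates 1 and 10 stood together at the low end of several of the genes. They were the lowest pair of tumors for foxa2, hhex and gata4, and both lay within the normal range for cebpa. They parted at foxa3 (1.21 in replicate 1, -0.32 in replicate 10) and at gata6 (0.37 and -1.14). They also parted at prox1a (-0.45 and 0.094) and at gata5 (-0.013 and 1.20). Array quality weights over all features, which are low for arrays that depart more from their group, were 0.25 and 0.20 for these replicates. The highest weight was 4.57, for tumor replicate 8, and normal replicates 1 and 3 also had low weights (0.22 and 0.30). Tumor replicates 1 and 10 also had the lowest tumor means of the hepatocyte function genes described below (-2.65 and -2.82). The part of array quality in these values was not tested. Without tumor replicates 1 and 10 limma called foxa2, foxa3, prox1a and also cebpa, whose difference became 1.27 (adjusted p = 0.0119). The share of all features called without these arrays is not given here.

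Other hepatocyte transcription factors mostly did not pass. Of 38 measured, 2 rose (5.91% of all features did) and 3 fell (4.94%), and their median difference was -0.033. Beside foxa1 and cebpg these were the fatty acid sensor pparab (-0.91 ± 0.21, adjusted p = 0.00911 with limma), the cholesterol regulator srebf2 (1.09 ± 0.31, adjusted p = 0.0260) and foxo3a, a forkhead factor controlled by insulin signalling (-0.81 ± 0.25, adjusted p = 0.0426). Leaving out any of 14 single arrays left foxo3a short of the threshold (highest adjusted p = 0.0721), and with the dim share in the fit limma called 0 of the 38, srebf2 being 0.41 ± 0.40 (adjusted p = 0.744). Hnf4a, a central regulator of the hepatocyte, differed by -0.094 ± 0.29 (95% interval -0.70 to 0.51, adjusted p = 0.870), nr5a2 by 0.052 ± 0.29 (adjusted p = 0.933) and hnf1bb, the paralog of hnf1ba, by 0.13 ± 0.20 (adjusted p = 0.725).

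Factors of endoderm, pancreas, bile duct and gut were measured to see whether neighbouring programmes moved. Of 23 genes, 1 rose (5.91% of all features did) and 0 fell (4.94%), with a median of -0.11. The gene that rose was ascl1a, a factor of nerve and endocrine cells (0.94 ± 0.25, adjusted p = 0.0171 with limma). Ascl1a was 0.23 ± 0.29 with the dim share in the fit and did not pass (adjusted p = 0.811), and the rank-sum test called 0 of the 23. The duct gene sox9b differed by 0.073 ± 0.24 (adjusted p = 0.879), the pancreas gene pdx1 by -0.30 ± 0.18 (adjusted p = 0.297) the eye and islet gene pax6a by -0.55 ± 0.18 (adjusted p = 0.0591) and sox32, which specifies endoderm in zebrafish, by -0.32 ± 0.12 (adjusted p = 0.0915).

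Of 12 cofactors and corepressors, 1 rose (5.91% of all features did) and 0 fell (4.94%), with a median of -0.040. The deacetylase gene hdac1 stood between 0.42 and 2.78 on the tumor arrays (median 1.0) and between -0.37 and 0.38 on the normal arrays (median 0.088). All 10 tumor arrays lay above every normal array, with a difference of 1.08 ± 0.22 (adjusted p = 0.00298 with limma), and with the dim share in the fit hdac1 did not pass (adjusted p = 0.240). The Wnt effector ctnnb1 differed by 0.39 ± 0.13 (adjusted p = 0.0594) and the acetyltransferase gene crebbpb by 0.28 ± 0.11 (adjusted p = 0.124). The Groucho corepressor genes tle3a and tle3b, partners of Hhex and FoxA proteins, differed by -0.11 ± 0.14 and -0.27 ± 0.27 (adjusted p = 0.651 and 0.556).

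Hepatocyte function genes, a list that holds several genes known in mammalian liver as targets of these factors, were lower in tumors. Of 22 measured, 13 fell (4.94% of all features did) and 0 rose (5.91%), with a median of -1.40 against -0.0086 over all features. The retinol carrier rbp4 differed by -4.03 ± 0.36, the methionine adenosyltransferase mat1a by -2.49 ± 0.29, the apolipoprotein apoa1a by -3.63 ± 0.44, the gluconeogenic enzyme fbp1b by -3.14 ± 0.44 and the coagulation inhibitor serpinc1 by -2.09 ± 0.39. Of well known targets of C/EBP alpha and FoxA factors in rodents, tat fell by 0.83 (SE 0.23, adjusted p = 0.0231 with limma), and pck1 differed by -1.62 ± 0.57 (adjusted p = 0.0691), while igfbp1a differed by 0.31 ± 0.59 (adjusted p = 0.781). The mean log2 ratio of the 22 genes ran from -2.82 to -0.64 on tumor arrays (median -1.69) and from -0.46 to 0.34 on normal arrays (median -0.089), so the groups did not overlap in it. With the dim share in the fit 4 of the 22 passed.

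**Figure D3:**
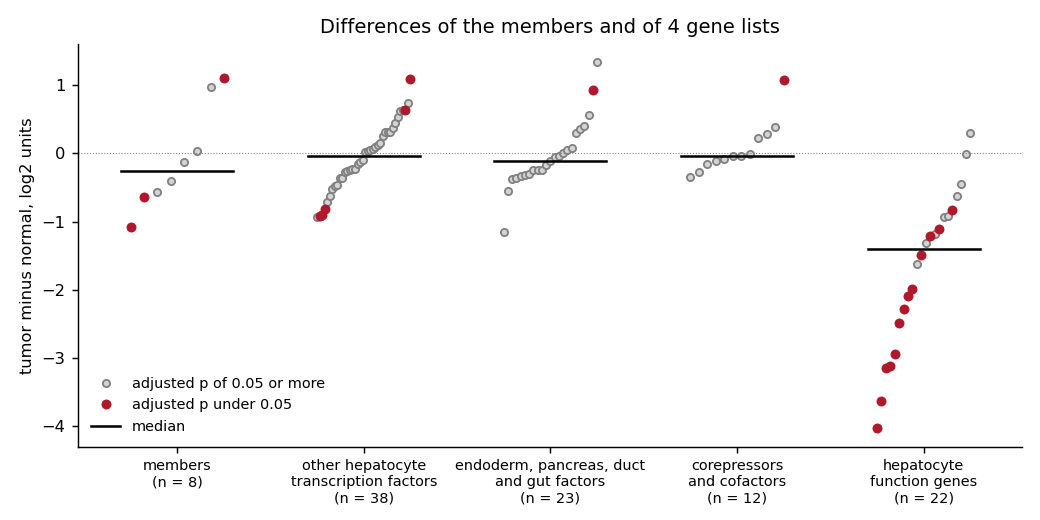
Tumor minus normal difference in log2 units (vertical axis) of each measured gene, for the 8 transcription factors and 4 gene lists, red where the adjusted p was under 0.05 and with a black bar at the median. Of the hepatocyte function genes 13 of 22 are red and all of these lie below 0, while the lists of other factors and cofactors centre near 0.

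Whether foxa2, prox1a and the mean of these 22 genes varied together was examined within each group, in 6 relations with p-values adjusted over the 6 (two-sided permutation tests, 100000 resamples). Over the 10 tumor arrays foxa2 and the function genes had r = 0.518 and rho = 0.406 (permutation p = 0.127 and 0.249, adjusted p = 0.581 and 0.676). The relation rests on replicates 10 and 1, since without them r was -0.136 (exact permutation p = 0.744, n = 8). Foxa2 and prox1a had r = 0.449 and rho = 0.430 over the tumors (permutation p = 0.194 and 0.218, adjusted p = 0.581 and 0.676), and r = 0.528 without the same replicates (exact permutation p = 0.171). Over the normal arrays foxa2 and prox1a had r = 0.139 and rho = 0.273 (permutation p = 0.677 and 0.450, adjusted p = 0.812 and 0.676), and without replicates 10 and 9 r turned to -0.289 (exact permutation p = 0.514). The other three relations had r between -0.296 and -0.068, with adjusted permutation p of 0.812 or more for r and 0.676 or more for rho, so none of the 6 passed.

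The genes whose pattern was most like that of foxa2 were sought among features with 1 symbol by Pearson's r of deviations from the group mean over the 20 arrays, which share arrays and reference. They were ephx1, an epoxide hydrolase of xenobiotic metabolism (r = 0.909), igfbp2a, a binding protein of insulin-like growth factors (r = 0.902), and vegfab, a vessel growth factor (r = 0.877). Without tumor replicates 1 and 10, with deviations still taken from the mean of all 10 tumors, the values were 0.854, 0.786 and 0.719. The remaining tumors were not centred again, so a shift that they share can raise these r. Over the normal arrays alone r was 0.732, 0.783 and 0.525. These genes were lower in tumors, ephx1 by -1.32 ± 0.27, igfbp2a by -2.29 ± 0.32 and vegfab by -1.36 ± 0.25 (adjusted p = 0.00291, 0.000144 and 0.00144 with limma), and igfbp2a was below every normal array on all 10 tumor arrays.

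The pattern of prox1a was most like those of imp3, of the processing of ribosomal RNA (r = 0.820), fbxo30b, of a ubiquitin ligase (r = 0.802), and parp12a (r = 0.760). Their differences did not pass, at 0.13 ± 0.25, 0.37 ± 0.37 and -0.14 ± 0.17 (adjusted p = 0.777, 0.559 and 0.632 with limma). Their likeness came more from the normal livers (r = 0.930, 0.843 and 0.935 over 10 arrays) than from the tumors (r = 0.519, 0.705 and 0.197). Normal replicate 3 had the lowest prox1a of the normal group. Imp3, fbxo30b and parp12a each had 1 normal array below every tumor array, at -1.79, -3.04 and -1.12. How far the r values rest on a single normal array was not tested.

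Markers of other cell types were followed over the same arrays, and their part in the results was not tested. Of all features 5.91% rose and 4.94% fell, to be read beside the counts of each marker list. Defining hepatocyte markers were lower in tumors or did not pass, with fabp10a at -3.11 ± 0.66, cp at -2.29 ± 0.32 (adjusted p = 0.00429 and 0.000145 with limma) and tfa at -0.63 ± 0.34 (adjusted p = 0.244). Ratios to a reference do not show whether a marker is absent, so the labelled tissue could not be checked against absent markers. Of 13 bile duct and epithelial genes 3 rose and 0 fell, led by epcam (1.32 ± 0.33, adjusted p = 0.0121), and 3 were lower by their means. The keratin genes krt8, krt4 and krt5 differed by 0.18, -0.16 and -0.35 and did not pass. Of 21 genes of stellate cells and fibroblasts 7 rose and 1 fell. From the bile duct and epithelial list notch3 and lgals3a rose by 0.63 and 0.48 (log2 differences). The matrix genes timp2a, postna and mmp14a rose by 1.10, 0.63 and 0.71, while vim was the gene that fell (-0.71 ± 0.21, adjusted p = 0.0352 with limma). Of the 21 genes 5 were lower by their means, among them the stellate cell genes hand2, desma and gfap (-0.43, -0.31 and -0.14), which did not pass. Pdgfra differed by 0.051 and did not pass. Leaving out a single array ended the call of notch3 for 6 arrays and that of lgals3a for 9 (highest adjusted p = 0.0562 and 0.0661). Notch3 and lgals3a were 0.41 and 0.23 with the dim share in the fit (adjusted p = 0.603 and 0.703), and epcam was 0.85 (adjusted p = 0.529). The mean log2 ratio of the bile duct and epithelial genes ran from 0.10 to 1.45 on tumor arrays and from -0.64 to 1.13 on normal arrays. That of the stellate cell and fibroblast genes ran from 0.18 to 2.20 and from -0.14 to 0.69. The highest values belonged to tumor replicates 1 and 10.

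Of 14 ovary genes 2 rose, org (2.04 ± 0.64) and zpcx (1.42 ± 0.46), and 1 fell, nanos3 (-0.65 ± 0.16). The median difference of the 14 was 0.88, with 4 lower by their means. The egg coat gene zp3 and the oocyte gene zar1 differed by 1.48 ± 0.76 and 1.69 ± 0.64 (adjusted p = 0.223 and 0.0926 with limma). The list means ran from -1.40 to 1.25 on tumor arrays and from -2.20 to 1.52 on normal arrays, highest on tumor replicate 10 and normal replicate 8. Leaving out a single array ended the calls of org and zpcx for 15 arrays each (highest adjusted p = 0.0803 and 0.0813), and with the dim share in the fit they were 0.73 and 0.15 (adjusted p = 0.793 and 0.944). The 4 exocrine pancreas genes had a median difference of -2.18 with 0 called by limma (the rank-sum test also called 0, and 3 had an unadjusted p under 0.05), and means from -4.91 to 0.90 on tumor arrays and from -3.28 to 2.71 on normal arrays. The digestive enzyme genes cel.2, cpb1 and prss1 differed by -2.28 ± 0.75, -2.09 ± 0.70 and -2.48 ± 0.88 (adjusted p = 0.0526, 0.0581 and 0.0741). Of 13 heart and smooth muscle genes 2 rose, the actin genes actc1b (1.10 ± 0.21) and actc1a (0.58 ± 0.17), while hand2 differed by -0.43 ± 0.19 (adjusted p = 0.151 with limma). The median difference of the 13 was -0.059, with 8 lower by their means. Of 6 intestine genes rbp2a fell (-3.25 ± 0.40), with a median difference of -0.19. The intestine markers vil1, cdh17 and fabp2 differed by 0.60, 0.30 and -0.56 and did not pass. Of 12 erythrocyte genes hbae3 fell (-0.44 ± 0.14), with 9 lower by their means and a median of -0.125. The globin genes hbba1 and hbaa1 differed by -1.36 ± 0.46 and -1.16 ± 0.53 (adjusted p = 0.0623 and 0.162 with limma), and alas2 by -0.067. The mean of the erythrocyte genes lay below every normal array on 7 of 10 tumor arrays. Leaving out a single array ended the call of actc1a for 9 arrays and that of hbae3 for 13 (highest adjusted p = 0.0658 and 0.0737), and hbae3 was -0.27 with the dim share in the fit (adjusted p = 0.653). In that fit rbp2a passed (-2.89 ± 0.58, adjusted p = 0.0304), and 0 other genes of the cell type lists did, actc1b (adjusted p = 0.217) and actc1a (adjusted p = 0.337) included. Of 14 leukocyte genes and 4 endocrine pancreas genes limma called 0. Before adjustment 2 and 0 of them had p under 0.05, and by rank sums 1 leukocyte gene and 0 endocrine genes passed. The endocrine genes ins, sst2 and scg3 differed by -0.89 ± 0.66, -0.29 ± 0.59 and 0.20 ± 0.57, and the leukocyte genes rag2, mpeg1.1 and cd74a by -0.34 ± 0.12, 1.19 ± 0.44 and 0.84 ± 0.42. The mean log2 ratios ran from -0.15 to 0.37 in tumors and -0.27 to 1.05 in normal livers for heart and smooth muscle, from -0.79 to 0.98 and from -0.36 to 1.75 for intestine, and from 0.038 to 2.07 and from 0.0061 to 1.28 for leukocytes. They ran from -0.61 to 0.45 and from -0.12 to 0.48 for erythrocytes, and from -1.14 to 1.39 and from -1.90 to 2.60 for endocrine pancreas.

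**Figure D4:**
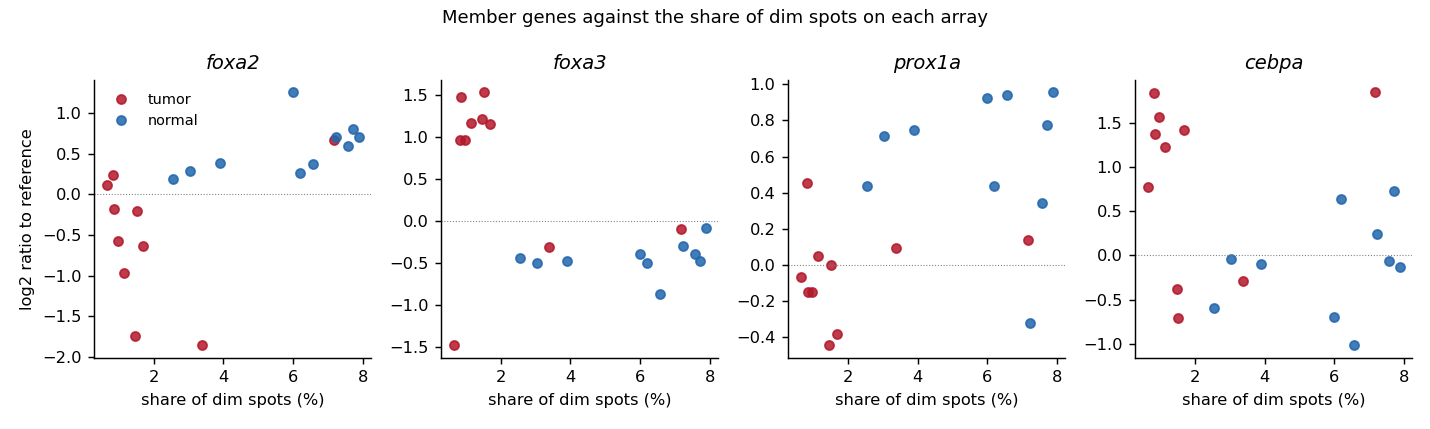
Log2 ratio to the reference (vertical axes) of foxa2, foxa3, prox1a and cebpa against the share of dim spots of each array in percent (horizontal axes), tumor arrays in red and normal arrays in blue. On the horizontal axis 8 tumor arrays lie left of all normal arrays, tumor replicate 9 at 7.16% has foxa2 (0.67) within the normal range and cebpa (1.84) above it, and tumor replicate 10 at 3.38% has foxa2 (-1.86) below the normal range and cebpa (-0.29) within it. Foxa3 lies within the normal range on both of these arrays.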

How the data were processed

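The table holds log2 ratios, 1 per probe and array, as deposited by the authors. Per the labels, the liver sample was labelled with Cy5 and normal liver reference RNA with Cy3. How the authors corrected background, filtered spots and normalized the arrays is not given in the sources used here, nor is any scan or slide batch. The log base was read from the steps between repeated values; the direction of the ratio is likely but not stated. Genes were not centred. Array medians lay between -0.14 and 0.034 on tumor arrays and between -0.14 and 0.20 on normal arrays, and the lowest correlation between arrays was 0.0770. No value was missing and no filter on low values was applied.

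The platform annotation gave 1 gene symbol to 6088 of 16512 probes, several to 75 and none to 10349; 6019 were found by Entrez number in a RefSeq gene table (assembly GRCz12tu, names only), which updated 1 symbol. Probes of the same symbol were averaged into 15780 features. Groups were read from the titles. Tumor and normal arrays were compared with limma 3.58.1 (lmFit, then eBayes; R 4.3.3), which was tested on simulated data, with Benjamini-Hochberg adjustment over all features at 0.05. A spot was counted as dim when its log2 ratio lay within 0.00011 of that of 2 whole numbers up to 10, after 1 constant per array. The constant was the one with the most matches. The rest was computed in Python 3.11.15 with scipy 1.17.1, numpy 2.4.6 and pandas 2.3.3. The number of arrays limits the precision.

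The genes, the 14 lists and the tests were chosen with earlier results of these data known, so counts over them are no independent support. The rule for named genes took every measured gene of the rule, every called hepatocyte factor, the 3 genes with the smallest p of each other list and the 3 features most like foxa2 and prox1a. Foxa, hnf4a, nr5a2, hnf1bb, sox9b, pdx1, tle3a, tle3b, fbp1b, serpinc1, tat, pck1, igfbp1a, flt4, kdrl, fabp10a, cp and tfa were named for their role, after their values were seen. So were cdh17, fabp2, hbaa1, alas2, zp3 and zar1. Krt8, krt4, krt5, vim, desma, gfap and pdgfra were also named outside the rule, with their values known. Alternatives were array centring, quantile normalization, the dim share as a covariate, the replicate number as a block, leaving out arrays, single probes, another prior, array weights and the exact rank-sum test. The titles give both groups the numbers 1 to 10; same-numbered arrays correlated in their deviations from the group means at -0.152 to 0.122, so the numbers were not taken to pair them.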

Additional observations from a re-analysis of the deposited data

Results flagged for a closer look

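For each of the 8 genes the tumor and the normal arrays were checked for an array far from the rest of its group, 16 groups in all, of which chance marks about 1 in 20. Of these 2 held an array that stood out. Prox1a on normal replicate 3, at -0.33, lay far below the other normal arrays, by 0.522 of the range of the group. Gata6 on tumor replicate 10, at -1.14, lay far below the other tumors, by 0.481 of the range.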

How the results depend on the processing

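The calls of foxa2, foxa3 and prox1a held without each array in turn, with differences of -1.21 to -0.93, 1.0 to 1.34 and -0.75 to -0.60. No call of the 8 genes changed with the replicate number as a block (foxa2 -1.08, adjusted p = 0.0280; foxa3 1.10, adjusted p = 0.0194; prox1a -0.64, adjusted p = 0.0217). In deviations from the group means only 1 tumor correlated best with the normal array of its own number, and with the block the count over all features was 1253. With the dim share in the fit these became -0.73, 0.86 and -0.61, none passed, and gata5 turned to 0.31. The group and the dim share move together, and the cause was not tested. The calls then numbered 0 of the 8 genes, 54 of all features, 0 of the other hepatocyte factors, 0 of the endoderm to gut factors, 0 of the cofactors and 4 of the function genes.

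Hhex passed with array quality weights (-0.43) and without normal replicate 8 and tumor replicate 10 (-0.51), and ran from -0.65 to -0.43 without single arrays. Cebpa passed after centring (1.0), quantile normalization (1.19), array weights (1.43), without tumor replicates 1 and 10 (1.27) and without normal replicate 8 and tumor replicate 10 (1.04), and ran from 0.86 to 1.14. It did not pass with the replicate number as a block (adjusted p = 0.0683 with limma) or with the rank-sum test (adjusted p = 0.168). Gata5 passed with array weights (-0.62). Gata4 turned to 0.11 without tumor replicates 1 and 10 and to 0.080 with array weights, and gata6 to -0.085 after quantile normalization and -0.20 with array weights. They ran from -0.20 to 0.025 and from -0.094 to 0.16 without single arrays. If the ratios ran the other way the differences would be 1.08 for foxa2, -1.10 for foxa3, 0.64 for prox1a, 0.57 for hhex, -0.97 for cebpa, 0.13 for gata4, 0.40 for gata5 and -0.035 for gata6.

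Of the 8 genes, 5 were called without normal replicate 8 and tumor replicate 10, 6 with array weights, and 3 to 4 without single arrays. All features called numbered 2622 after quantile normalization, 3391 with array weights and 1358 to 2148 without single arrays. That count is not given here for the fit without normal replicate 8 and tumor replicate 10. The other hepatocyte factors called were 11 with array weights and 3 with the rank-sum test. The endoderm to gut factors called were 2 after centring, 3 after quantile normalization, 2 with array weights, 0 with the rank-sum test and 1 to 3 without single arrays. The cofactors called were 3 after quantile normalization, 3 with array weights, 2 with the rank-sum test and 1 to 2 without single arrays. Without the 2 farthest arrays the relation of foxa2 with the function genes over tumors turned to -0.136 and that with prox1a over normal arrays to -0.289. Genes that did not pass changed sign: scg3 after quantile normalization (-0.078), without tumor replicates 1 and 10 (-0.20), with array weights (-0.39) and without single arrays (-0.13 to 0.40), sst2 without single arrays (-0.57 to 0.013), clec14a (0.057) and hand2 (0.021) with the dim share in the fit, and imp3 with array weights (-0.025) and without single arrays (-0.059 to 0.23).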
